A study of Mus musculus with 9 samples.

Results

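The collagen chain genes of mouse lung were followed over 3 strains and 2 air pressures. The members are all probe sets whose platform annotation gives a single gene symbol made of Col, a number, a and a number. They were 82 probe sets of 42 genes, of 18193 genes named on the array. Whole right lung was measured on 9 one-colour oligonucleotide arrays with 1 signal per probe set. Mice of the strains BL6 (labelled C57/BL6), FVB/N and SV129 had spent 4 weeks in hypobaric hypoxia at 50 kPa, with 2 arrays per strain, or at Denver altitude at 85 kPa, called normoxic in the labels, with 1 array per strain. Age and sex of the mice are not given in the labels used here. Nothing in the labels ties an array to an animal of its own, so the p-values cover only how far these arrays differ from each other, and that spread could be technical. The lung was taken whole, so fewer cells of a type and less RNA per cell cannot be told apart.

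Collagens are proteins whose chains wind around each other into a rod-like helix. Fibrillar collagens build the ropes that carry tension in airway, vessel and pleura. Collagen IV forms the sheet-like network of basement membranes, including the fused one between alveolar epithelium and capillary. Collagen VI forms beaded filaments beside it, and FACIT collagens sit on the surface of fibrils. In chronic hypoxia the walls of pulmonary arteries are known to thicken and to gain matrix.

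Values are log2(signal + 16) after quantile normalization, and each difference is on that scale with its SE. A probe set was tested if its mean over the 9 arrays exceeded 6.13, which left out the dimmest 40%. It was called if limma's Benjamini-Hochberg adjusted p over all 27022 probe sets tested was below 0.05. Lung epithelial markers averaged 13.30 to 13.80 on the hypoxic arrays and 13.14 to 13.57 on the normoxic arrays. A list of 14 kidney markers stood apart, with a mean of 11.36 on Hypoxic BL6 array 2 and of 12.22 on the normoxic FVB/N array, while the other 7 arrays lay between 5.58 and 6.22. The hypoxia comparison across strains and the comparisons between strains are therefore given again on the 7 arrays without these 2, where FVB/N has no normoxic array left. Other tissue markers also differed between arrays. Acta1 and Ckm, of skeletal muscle, read 13.13 and 12.25 on the normoxic FVB/N array and at most 7.59 and 8.99 on the other 8. The list of 10 heart and skeletal muscle markers averaged 8.74 to 10.16 on the hypoxic and 9.18 to 11.17 on the normoxic arrays, with a hypoxia median of -0.65 and none of 9 tested called by limma. The list of 5 brown fat markers averaged 5.53 to 7.81 on the hypoxic and 7.30 to 8.65 on the normoxic arrays, its defining gene Ucp1 read at most 4.93, and Adipoq, which all fat makes, was called lower in hypoxic lung. The 3 fat markers tested had a median of -1.85 for hypoxia and 2.91 for BL6 minus SV129, where 1, again Adipoq, was called higher in BL6. Their part in the collagen results was not tested. The 11 cartilage markers averaged 6.06 to 6.40 on the hypoxic and 5.98 to 6.10 on the normoxic arrays.

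Of the 82 probe sets, 50 probe sets of 29 genes passed the filter. All 12 probe sets of the 6 basement membrane genes passed, as did all 3 of the multiplexins Col15a1 and Col18a1 and the single one of Col7a1. Among fibrillar collagens 14 of 21 probe sets passed, for 7 of 11 genes. The cartilage chains Col2a1, Col11a1 and Col11a2 and the gene Col24a1 had none. Col10a1, of growth plate cartilage, ranged from 4.19 to 4.42 over the 9 arrays, where a signal of 0 would give 4. Among FACIT collagens 8 of 24 probe sets passed, for 5 of 9 genes, and Col9a1, Col9a2 and Col9a3, which coat cartilage fibrils, and Col19a1 had none. Col6a4 and Col6a5 of the beaded filament class, Col25a1 of the transmembrane class and Col26a1 also had none. The nearest probe set below the filter was Col20a1 1430855_at, with a mean of 6.07. Col19a1 1421698_a_at had a mean of 5.31 and its highest level, 7.38, on the normoxic FVB/N array. That array carried kidney transcripts and also the highest Acta1 and Ckm levels. On Hypoxic BL6 array 2, the other array with kidney transcripts, this probe set read 5.15.

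**Figure D1:**
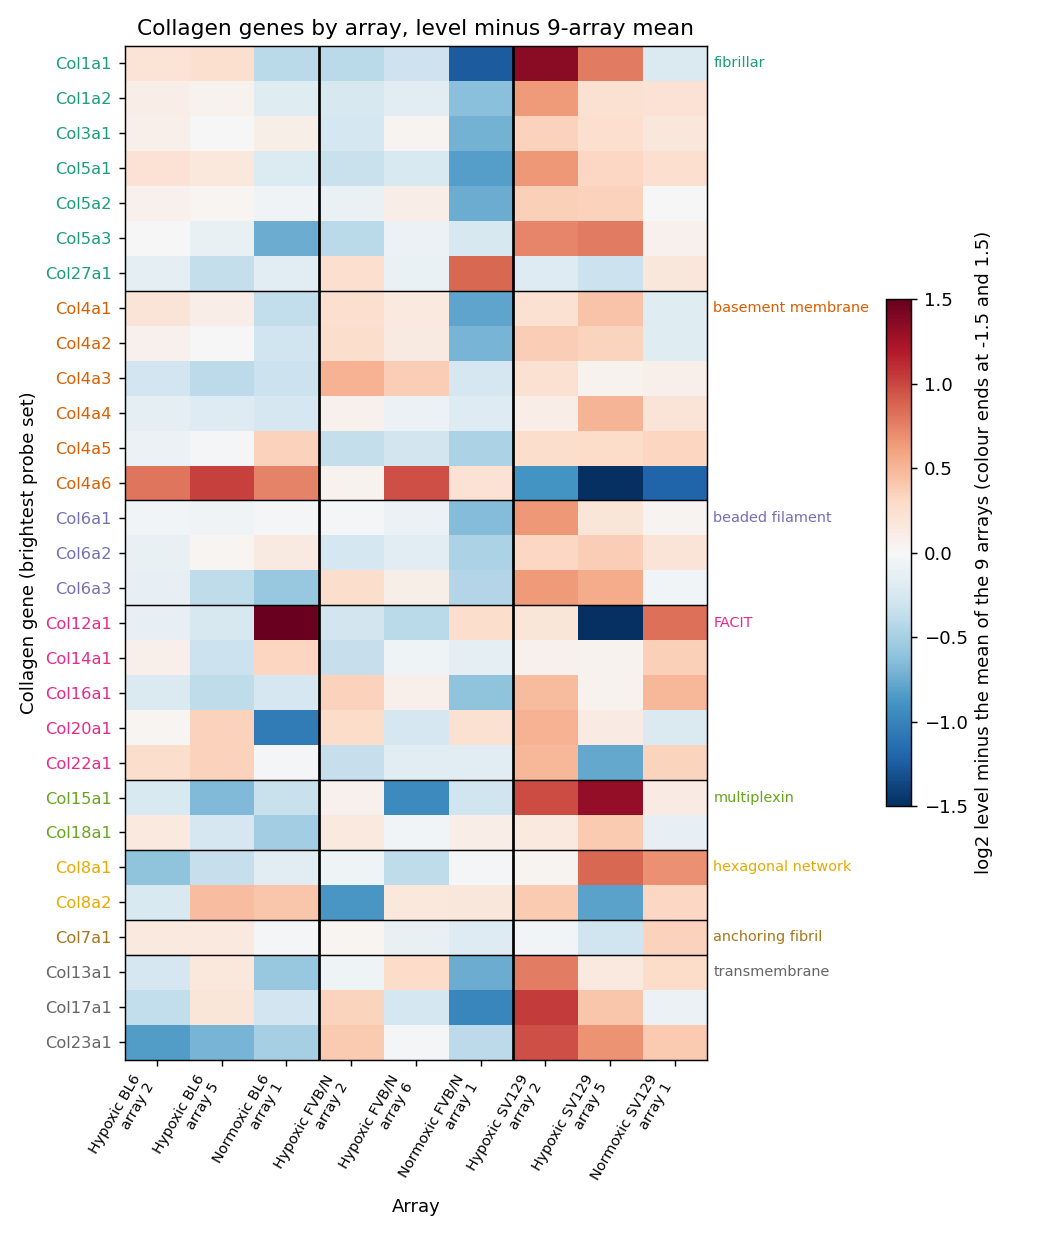
Level of each of the 29 collagen genes that passed the filter, read through its brightest probe set, on each of the 9 arrays (columns), as the log2 level minus the gene's mean over the 9 arrays. Genes run down the page by collagen class, and within a strain the hypoxic arrays stand left of the normoxic one. The SV129 columns are mostly red, while Col4a6 is blue there, and the normoxic FVB/N column is blue for most fibrillar and basement membrane genes.

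The first comparison asked which collagens differed between hypoxic and normoxic lung with strain as a term. Over the 9 arrays, Col1a1 (on 1 of its 2 probe sets), Col4a1, Col4a2 and Col6a3 were higher in hypoxic lung, by 1.44 to 1.91-fold. Col4a1 and Col4a2 are the ubiquitous basement membrane pair, and Col1a1 is a chain of collagen I, whose other chain Col1a2 was not called. With Col23a1 1429210_at, the calls were 6 of 50 collagen probe sets, or 12%, where 1.94% of all probe sets tested were called higher. No collagen probe set was called lower by limma, where 1.82% of all were, and 18 of the 50 (36%) had an unadjusted p below 0.05 in either direction, where 22.2% of all did. The median difference of the 50 was 0.22, beside 0.04 over all probe sets tested, and 34 of the 50 were above 0. On the 7 arrays limma called no collagen probe set in either direction, where 0.137% of all were called higher and 0.707% lower. There 11 of the 50 tested (22%) had an unadjusted p below 0.05, where 15.8% of all did, and the median was 0.11. The filter was made anew whenever arrays were left out. On the 7 arrays Col20a1 1430855_at thus stood among the 50 in place of 1425234_at.

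Col1a1 encodes the chain of which collagen I holds the most. It read 11.75 and 11.79 in hypoxic BL6, against 11.14 in normoxic BL6. In FVB/N it read 11.14 and 11.23 in hypoxic lung, against 10.30 in normoxic lung. In SV129 it read 12.90 and 12.32 in hypoxic lung, against 11.33 in normoxic lung. Both hypoxic arrays of each strain thus lay above that strain's normoxic array, while the groups overlapped across strains. Its difference was 0.93 ± 0.164 (1.91-fold, adjusted p = 0.0236) on 9 arrays and 0.99 ± 0.214 (adjusted p = 0.0768) on 7. A dimmer Col1a1 probe set, 1455494_at, differed by 0.09 ± 0.207 (adjusted p = 0.841), so the call rested on 1 probe set of the gene. That call was lost in 6 of 20 other settings, with differences from 0.69 to 1.08.

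The other chain of collagen I, Col1a2, did not pass. It read 13.29 and 13.25 in hypoxic and 13.01 in normoxic BL6, 12.96 and 13.02 in hypoxic and 12.57 in normoxic FVB/N, and 13.83 and 13.42 in hypoxic and 13.41 in normoxic SV129. Both hypoxic arrays lay above the normoxic one in every strain, and the difference was 0.30 ± 0.112 (adjusted p = 0.157). Col3a1 builds the fibrils of distensible vessel walls. It read 13.77 and 13.69 in hypoxic and 13.79 in normoxic BL6, 13.43 and 13.74 in hypoxic and 12.99 in normoxic FVB/N, and 14.04 and 13.95 in hypoxic and 13.87 in normoxic SV129, and differed by 0.22 ± 0.131 (adjusted p = 0.351).

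Collagen V starts fibrils and limits their width. Col5a1 read 10.22 and 10.16 in hypoxic and 9.80 in normoxic BL6, 9.67 and 9.78 in hypoxic and 9.18 in normoxic FVB/N, and 10.66 and 10.31 in hypoxic and 10.26 in normoxic SV129. Col5a2 read 11.69 and 11.66 in hypoxic and 11.58 in normoxic BL6, 11.53 and 11.73 in hypoxic and 10.88 in normoxic FVB/N, and 11.99 and 11.97 in hypoxic and 11.64 in normoxic SV129. Col5a3 read 7.26 and 7.15 in hypoxic and 6.52 in normoxic BL6, 6.86 and 7.17 in hypoxic and 7.02 in normoxic FVB/N, and 7.99 and 8.04 in hypoxic and 7.33 in normoxic SV129. None of the 3 passed: Col5a1 differed by 0.39 ± 0.139, Col5a2 by 0.39 ± 0.137 and Col5a3 by 0.46 ± 0.199, with adjusted p-values of 0.148, 0.14 and 0.22. Col27a1, a fibrillar chain best known from cartilage, was below 0 on both probe sets, at -0.43 ± 0.18 and -0.47 ± 0.208, neither past the threshold. In all, 1 of the 14 fibrillar probe sets was called and the class median was 0.22.

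The basement membrane class gave 3 of the 6 calls, with a class median of 0.25 over 12 probe sets. Col4a1 and Col4a2 encode the chains of the collagen IV network found in nearly all basement membranes. Col4a1 (1452035_at) read 13.99 and 13.90 in hypoxic BL6, against 13.43 in normoxic BL6. The FVB/N values were 14.05 and 13.95 in hypoxic lung, against 13.01 in normoxic lung. The SV129 values were 14.03 and 14.23 in hypoxic lung, against 13.62 in normoxic lung. All 6 hypoxic arrays lay above all 3 normoxic arrays. The difference was 0.67 ± 0.115 (1.59-fold, adjusted p = 0.0217), and the other Col4a1 probe set, 1426348_at, gave 0.77 ± 0.124 (1.70-fold, adjusted p = 0.019), again without overlap.

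Col4a2 read 13.16 and 13.10 in hypoxic BL6, against 12.80 in normoxic BL6. In FVB/N its levels were 13.36 and 13.23 in hypoxic lung, against 12.40 in normoxic lung. In SV129 its levels were 13.47 and 13.43 in hypoxic lung, against 12.91 in normoxic lung. The groups did not overlap, and the difference was 0.58 ± 0.116 (adjusted p = 0.0332). Col4a2 lost the call in 11 of 20 other settings, with differences from 0.41 to 0.73. Col4a1 lost it in 7 of 20 on 1452035_at and in 5 of 20 on 1426348_at. On the 7 arrays the Col4a1 probe sets differed by 0.51 ± 0.104 and 0.59 ± 0.132 (adjusted p = 0.0697 and 0.0838) and Col4a2 by 0.44 ± 0.114 (adjusted p = 0.117). The lowest level of each gene was on the normoxic FVB/N array, and hypoxic arrays lay above normoxic ones in BL6 and SV129 too. Endothelial cells and pericytes are known makers of collagen IV. Their marker lists had hypoxia medians of 0.43 and 0.40 over 8 genes each. Of these genes 1, of the endothelial list, was called higher, where 1.94% of all probe sets were. Medians on the 7 arrays were 0.11 and 0.20, with 1 endothelial gene called higher and 1 pericyte and smooth muscle gene lower. There 0.137% of all probe sets were called higher and 0.707% lower. Mean marker levels ran from 12.03 to 12.60 on hypoxic and 11.62 to 12.32 on normoxic arrays for endothelium. For pericytes and smooth muscle they ran from 10.85 to 11.47 on hypoxic and 10.34 to 11.16 on normoxic arrays, and the part of these cells in the result was not tested.

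The collagen IV chains that are more restricted in tissue did not pass. Col4a3, Col4a4 and Col4a5 make up the network of glomerular and alveolar basement membrane. Brightest probe sets differed by 0.24 ± 0.155 for Col4a3, 0.13 ± 0.118 for Col4a4 and -0.10 ± 0.124 for Col4a5. Col4a6, which pairs with Col4a5 in smooth muscle and skin basement membrane, differed by 0.12 ± 0.258. The smallest adjusted p among the 9 probe sets of these 4 genes was 0.0806, for Col4a5 1425475_at at 0.47 ± 0.131.

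Collagen IV genes lie in head-to-head pairs. The 250 bases before the starts of 4 of them are shown because Col4a1 and Col4a2 were called together in this comparison, while Col4a6 was called higher and 1 probe set of Col4a5 lower in FVB/N than in SV129. Sequences and positions are from RefSeq on GRCm38.p6, which held windows for 33 of the 42 genes, each read 5′ to 3′ on the gene's own strand. Capitals mark a CCAAT box (CCAAT, or ATTGG on the other strand) or a GC box (GGGCGG or CCGCCC).
Col4a1, chr8:11312827-11313076, minus strand: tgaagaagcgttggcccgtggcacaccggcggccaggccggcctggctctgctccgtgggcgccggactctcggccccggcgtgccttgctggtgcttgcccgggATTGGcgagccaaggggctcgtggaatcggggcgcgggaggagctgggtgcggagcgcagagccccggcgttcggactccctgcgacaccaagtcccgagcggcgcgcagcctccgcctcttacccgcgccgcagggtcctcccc
Col4a2, chr8:11312555-11312804, plus strand: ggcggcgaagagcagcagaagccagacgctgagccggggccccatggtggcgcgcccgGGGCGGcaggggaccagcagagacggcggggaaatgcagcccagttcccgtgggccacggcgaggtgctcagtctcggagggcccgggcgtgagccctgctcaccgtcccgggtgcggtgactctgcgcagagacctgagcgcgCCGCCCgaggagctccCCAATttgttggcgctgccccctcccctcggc
Col4a5, chrX:141475169-141475418, plus strand: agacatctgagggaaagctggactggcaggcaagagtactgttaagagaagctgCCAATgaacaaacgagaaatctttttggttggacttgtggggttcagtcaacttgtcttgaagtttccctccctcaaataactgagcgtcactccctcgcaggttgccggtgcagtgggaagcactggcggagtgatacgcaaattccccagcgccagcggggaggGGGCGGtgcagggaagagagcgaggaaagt
Col4a6, chrX:141474077-141474326, minus strand: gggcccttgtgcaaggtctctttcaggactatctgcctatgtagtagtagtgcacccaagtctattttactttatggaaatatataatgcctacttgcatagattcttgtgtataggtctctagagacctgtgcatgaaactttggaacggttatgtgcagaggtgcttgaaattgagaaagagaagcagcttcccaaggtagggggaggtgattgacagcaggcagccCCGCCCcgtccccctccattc

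The Col4a1 and Col4a2 starts lie 21 bases apart on opposite strands and the annotated transcripts overlap, so each window lies inside the neighbouring gene. The Col4a6 and Col4a5 starts lie 1343 bases apart. GC content was 74.4% before Col4a1 and 73.6% before Col4a2, and 54.0% before Col4a5 and 47.6% before Col4a6, with a median of 52.4% over all 32851 windows. A CCAAT box on either strand stood in 36.1% of the 36 collagen windows and 33.8% of all windows, and a GC box in 58.3% and 32.7%. TATAAA stood in 13.9% and 12.4%, and ACGTG, the A form of the (A/G)CGTG core of hypoxia response elements, in 11.1% and 16.6%. The G form, GCGTG, was not counted over the windows. None of the 4 printed windows holds TATAAA or ACGTG on either strand, while those of Col4a1 and Col4a2 hold GCGTG, which is not marked. A match only describes letters in these windows.

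Among beaded filament chains, 1 of 4 probe sets was called and the class median was 0.26. Col6a3, the longest chain of collagen VI, read 12.12 and 11.86 in hypoxic BL6, against 11.68 in normoxic BL6. FVB/N gave 12.51 and 12.33 in hypoxic lung, against 11.81 in normoxic lung. SV129 gave 12.89 and 12.80 in hypoxic lung, against 12.21 in normoxic lung. Both hypoxic arrays exceeded the normoxic one in every strain, though the groups overlapped across strains. The difference was 0.52 ± 0.118 (1.44-fold, adjusted p = 0.0474) on 9 arrays and 0.44 ± 0.148 (adjusted p = 0.208) on 7. Col6a3 lost the call in 14 of 20 other settings, with differences from 0.31 to 0.63. Its partners Col6a1 and Col6a2 differed by 0.31 ± 0.148 (adjusted p = 0.257) and 0.07 ± 0.115 (adjusted p = 0.74).

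The transmembrane collagens had the highest class median, 0.52 over 5 probe sets, with 1 call. Col23a1, a membrane collagen that can be shed, read 8.49 and 8.98 in hypoxic BL6, against 8.25 in normoxic BL6 on 1429210_at. On FVB/N arrays it read 9.71 and 9.93 in hypoxic lung, against 8.71 in normoxic lung. On SV129 arrays it read 10.39 and 10.41 in hypoxic lung, against 9.21 in normoxic lung. The groups overlapped across strains but in no strain. The difference was 0.93 ± 0.185 (1.90-fold, adjusted p = 0.0337), and 0.99 ± 0.197 on 7 arrays (adjusted p = 0.0646). Its brighter probe sets, 1440911_at and 1429209_at, differed by 0.25 ± 0.19 and 0.36 ± 0.191 and did not pass, so this call too rested on 1 probe set. The call was lost in 9 of 20 other settings, with differences from 0.69 to 1.15. Col17a1, of hemidesmosomes, and Col13a1, of cell-matrix contacts, differed by 0.67 ± 0.258 and 0.52 ± 0.196, with adjusted p-values of 0.169 and 0.163.

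The remaining classes held no call. FACIT collagens had a median of -0.21, with 6 of 8 probe sets below 0. Col12a1 binds collagen I fibrils and is known from tissue under load. It read 8.45 and 8.33 in hypoxic BL6, against 10.06 in normoxic BL6. It read 8.30 and 8.17 in hypoxic FVB/N, against 8.84 in normoxic FVB/N. It read 8.76 and 6.85 in hypoxic SV129, against 9.40 in normoxic SV129. All 6 hypoxic arrays lay below all 3 normoxic arrays, yet the difference of -1.29 ± 0.378 had an adjusted p of 0.0918, and -1.65 ± 0.477 on 7 arrays one of 0.155. The other Col12a1 probe set that passed the filter, 1427391_a_at, differed by -0.15 ± 0.199. The 3 hexagonal network probe sets, of Col8a1 and Col8a2 in vessel walls and corneal endothelium, ran from -0.44 to -0.15.

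The multiplexin Col18a1, source of endostatin, read 9.98 and 9.59 in hypoxic and 9.32 in normoxic BL6, 9.99 and 9.80 in hypoxic and 9.94 in normoxic FVB/N, and 9.98 and 10.23 in hypoxic and 9.71 in normoxic SV129. Its difference was 0.27 ± 0.164 (adjusted p = 0.367). Col15a1, a multiplexin of vessel basement membranes, read 7.69 and 7.25 in hypoxic and 7.58 in normoxic BL6 and 7.98 and 6.96 in hypoxic and 7.62 in normoxic FVB/N. In SV129 it read 8.89 and 9.23 in hypoxic lung, against 8.04 in normoxic lung, and the difference over strains was 0.26 ± 0.3 (adjusted p = 0.657). Col7a1, of anchoring fibrils, differed by -0.07 ± 0.196.

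**Figure D2:**
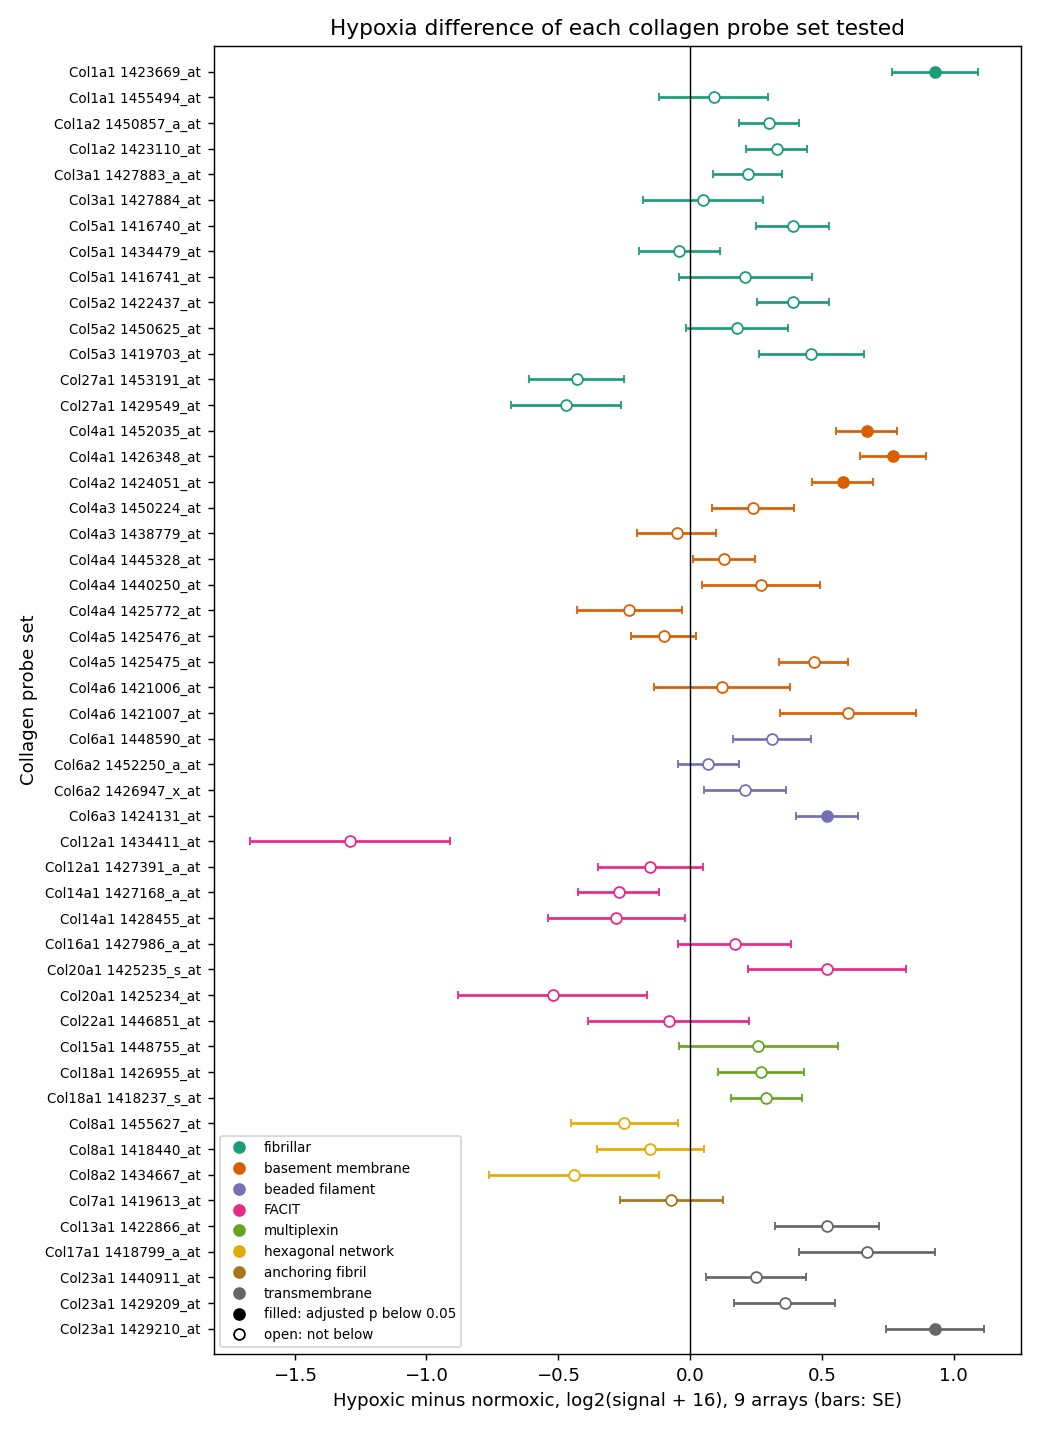
Hypoxic minus normoxic difference of each of the 50 collagen probe sets tested, in log2 units with strain as a term over 9 arrays, ordered and coloured by class, with bars for the SE. The 6 filled points, for Col1a1, Col4a1 (both probe sets), Col4a2, Col6a3 and Col23a1, had an adjusted p below 0.05 and lie between 0.52 and 0.93, and Col12a1 1434411_at lies lowest at -1.29.

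Counted over arrays, 13 of the 50 collagen probe sets (26%) had both hypoxic arrays above the normoxic array of their strain in all 3 strains, where 14.5% of all probe sets did. They belonged to Col1a1, Col1a2, Col4a1, Col4a2, Col4a5, Col5a1, Col5a2, Col6a2, Col6a3, Col18a1 and Col23a1. The reverse held for 2 of 50 (4%), of Col12a1 and Col27a1, where 8.77% of all did. The number of calls, over collagens and over all probe sets, changed with single arrays. Without Hypoxic BL6 array 5, Hypoxic FVB/N array 6, the normoxic BL6 array or the normoxic SV129 array limma called 0 collagen probe sets higher, where 0.0074% to 0.396% of all were. In these 4 fits, in that order, the difference of Col4a1 1426348_at was 0.82, 0.76, 0.89 and 0.79, against 0.77 on 9 arrays, and that of Col1a1 0.95, 0.92, 1.08 and 0.76, against 0.93. Without Hypoxic FVB/N array 2 there was 1 call higher, where 0.488% of all were. Without Hypoxic SV129 array 5 there were 3, where 1.08% of all were. Leaving out 1 array with kidney transcripts, Hypoxic BL6 array 2 or the normoxic FVB/N array, kept 4 calls higher, where 0.618% and 0.947% of all were. Leaving out Hypoxic SV129 array 2 kept 5, where 2.98% of all were. Without Hypoxic SV129 array 2, 1 probe set was called lower, where 2.16% of all were. The median difference was 0.33 without the normoxic BL6 array and 0.07 without the normoxic FVB/N array.

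Strain by strain, the calls came from FVB/N, whose normoxic array carried kidney transcripts. There 3 collagen probe sets were called higher, where 2.95% of all were, and 0 lower by limma, where 3.85% of all were. Of the 50, 18 (36%) had an unadjusted p below 0.05, where 26.1% of all did. Col4a1 differed by 0.99 ± 0.138 and 1.04 ± 0.172 and Col4a2 by 0.89 ± 0.138 (adjusted p = 0.027, 0.0276 and 0.027). In FVB/N, hypoxia and the kidney transcripts cannot be told apart. These calls were lost without Hypoxic FVB/N array 2 or 6. Over the settings run, the difference ranged from 0.82 to 0.95 for Col4a2. For Col4a1 it ranged from 0.93 to 1.04 on 1452035_at and from 0.96 to 1.13 on 1426348_at.

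In BL6 and in SV129 limma called 0 collagen probe sets, where 0.0148% and 0% of all were called. In BL6 7 of the 50 (14%) had an unadjusted p below 0.05, where 12.5% of all did, and in SV129 8 (16%), where 7.58% of all did. Calls in BL6 changed when 1 array was left out, and the share over all probe sets was not counted there. Col4a1 (1452035_at) differed by 0.52 ± 0.138 in BL6 and 0.51 ± 0.138 in SV129, and Col4a2 by 0.33 ± 0.138 in BL6 and 0.54 ± 0.138 in SV129. Col1a1 differed by 0.63 ± 0.252 in BL6, 0.88 ± 0.252 in FVB/N and 1.28 ± 0.252 in SV129. The F test in limma of whether the hypoxia difference varied with strain called 0 collagen probe sets, where 0% of all were called. Of the 50, 1 (2%) had an unadjusted p below 0.05, where 12.3% of all did, and the smallest adjusted p was 0.405, for Col3a1. Median differences of the 50 were -0.02 in BL6, 0.25 in FVB/N and 0.20 in SV129, beside 0.02, 0.17 and 0.01 over all probe sets.

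**Figure D3:**
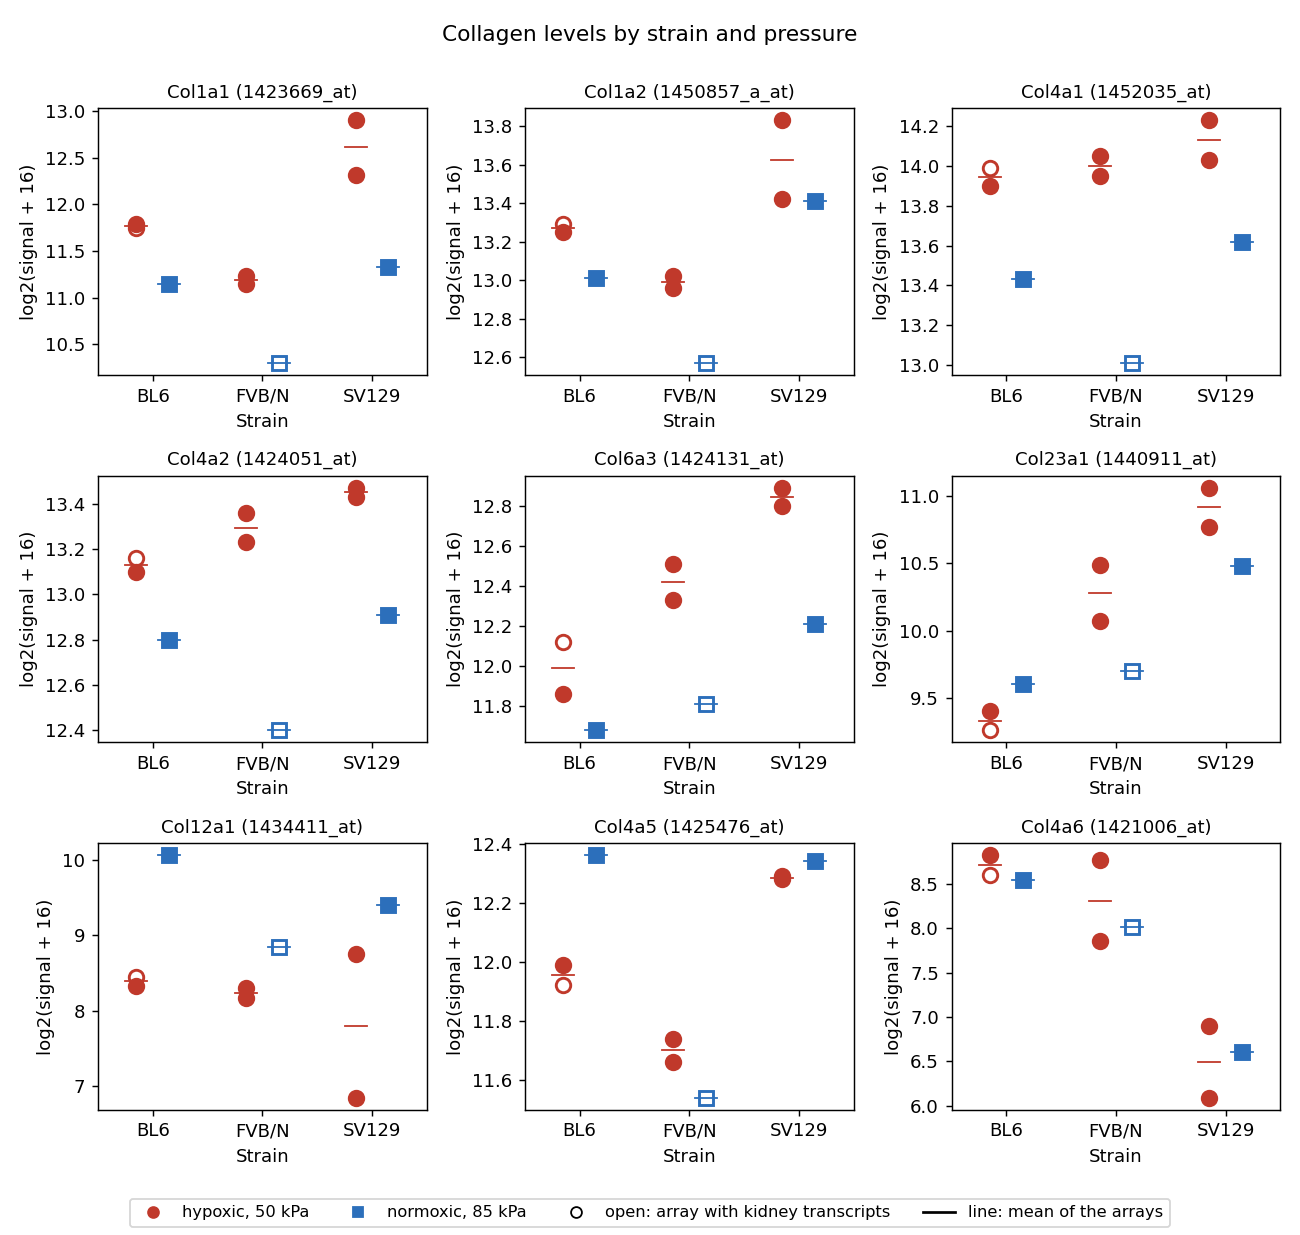
Level of 9 collagen genes through their brightest probe sets as log2(signal + 16) on each array, by strain, with hypoxic arrays (circles) left of the normoxic array (square) of the same strain, lines for means, and open symbols for the 2 arrays with kidney transcripts; each panel has its own axis, which does not start at 0. Both hypoxic points lie above the normoxic one in every strain for Col1a1, Col1a2, Col4a1, Col4a2 and Col6a3 and below it for Col12a1, and Col4a6 is lowest on the 3 SV129 arrays.

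The strain comparisons asked which collagens differed between strains with pressure as a term. SV129 lung had the higher signal for most collagen probe sets: 41 of the 50 were below 0 for BL6 minus SV129, and 42 of 50 for FVB/N minus SV129. Probe sequences were not available, so strain sequence differences under the probes, which can change a signal, could not be checked. The medians were -0.36 and -0.44, beside -0.03 over all probe sets in either comparison. The fibrillar medians were -0.42 and -0.73, those of the beaded filament class -0.45 and -0.54, and those of the transmembrane class -0.96 and -0.58. Both comparisons share the SV129 arrays. Col4a6 was the collagen called higher in BL6 and in FVB/N than in SV129, on 1421006_at. Its other probe set, 1421007_at, was called too. That probe set passed the filter only through BL6 and FVB/N, so its call is no further support.

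Col4a6 (1421006_at) read 8.60 and 8.82 in hypoxic and 8.54 in normoxic BL6, 7.85 and 8.77 in hypoxic and 8.01 in normoxic FVB/N, and 6.90 and 6.09 in hypoxic and 6.60 in normoxic SV129. All SV129 arrays lay below all BL6 and FVB/N arrays. The difference was 2.13 ± 0.297 for BL6 minus SV129 (4.36-fold, adjusted p = 0.00712) and 1.68 ± 0.297 for FVB/N minus SV129 (3.20-fold, adjusted p = 0.0192). The second probe set, 1421007_at, read 7.59 to 8.19 on the BL6 and FVB/N arrays, and 5.34 and 5.75 in hypoxic and 4.32 in normoxic SV129, below the filter value of 6.13. It passed the filter through the BL6 and FVB/N arrays, and the SV129 arrays lie between the floor of 4 and the filter value, so the size is not given as a fold. The difference was 2.69 ± 0.298 for BL6 (adjusted p = 0.00225) and 2.70 ± 0.298 for FVB/N (adjusted p = 0.00179) minus SV129, and over the settings run each ranged from 1.70 to 3.65.

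These were the 2 collagen calls higher in BL6, or 4%, where 1.35% of all probe sets were, and the 2 in FVB/N, or 4%, where 1.06% of all were. Both counts include 1421007_at, which passed the filter only through the strains where it was high. On the 7 arrays Col4a6 was called for BL6 on both probe sets, where 1.21% of all were, with differences of 2.17 ± 0.36 and 2.97 ± 0.308 (adjusted p = 0.0247 and 0.00345). For FVB/N 1 was called, where 0.918% of all were: 1421007_at at 2.54 ± 0.321 (adjusted p = 0.00735), while 1421006_at gave 1.77 ± 0.375 (adjusted p = 0.0569). With 1 array left out, the count for BL6 was 1 without Hypoxic BL6 array 5, where 0.418% of all were called higher. That for FVB/N was 1 without Hypoxic FVB/N array 6, Hypoxic SV129 array 5 or the normoxic SV129 array. In these FVB/N fits 0.444% to 0.681% of all were called higher.

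Its neighbour Col4a5 was below 0 for FVB/N minus SV129, and 1 of its 2 probe sets, 1425476_at, was called. It read 11.92 and 11.99 in hypoxic and 12.36 in normoxic BL6, 11.66 and 11.74 in hypoxic and 11.54 in normoxic FVB/N, and 12.28 and 12.29 in hypoxic and 12.34 in normoxic SV129. All FVB/N arrays lay below all SV129 arrays, and the difference for FVB/N minus SV129 was -0.66 ± 0.143 (adjusted p = 0.0459), or -0.53 ± 0.141 (adjusted p = 0.116) on 7 arrays. The difference for BL6 minus SV129 was -0.21 ± 0.143 (adjusted p = 0.522). The other probe set, 1425475_at, gave -0.26 ± 0.151 for FVB/N (adjusted p = 0.43) and 0.14 ± 0.151 for BL6 (adjusted p = 0.693) minus SV129. The call thus rested on 1 probe set, and it was lost in 16 of 21 other settings, with differences from -0.73 to -0.52.

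Col4a3 gave different answers on its probe sets. On 1438779_at it read 10.46 and 10.30 in hypoxic and 10.64 in normoxic BL6, 9.60 and 9.89 in hypoxic and 9.71 in normoxic FVB/N, and 11.68 and 11.27 in hypoxic and 11.39 in normoxic SV129, with no overlap between any strains. The differences were -0.98 ± 0.174 for BL6 minus SV129 (adjusted p = 0.0203) and -1.71 ± 0.174 for FVB/N minus SV129 (3.28-fold, adjusted p = 0.00111). On the brighter 1450224_at they were -0.45 ± 0.179 and 0.11 ± 0.179, neither called. That probe set read 10.77 and 10.66 in hypoxic and 10.74 in normoxic BL6, 11.58 and 11.43 in hypoxic and 10.81 in normoxic FVB/N, and 11.28 and 11.11 in hypoxic and 11.13 in normoxic SV129. Between BL6 and FVB/N the probe sets differed in sign, at 0.74 ± 0.174 for 1438779_at and -0.56 ± 0.179 for 1450224_at. Col4a4, on chromosome 1 like Col4a3, read 12.16 and 12.11 in hypoxic and 12.04 in normoxic BL6, 12.36 and 12.21 in hypoxic and 12.10 in normoxic FVB/N, and 12.40 and 12.81 in hypoxic and 12.49 in normoxic SV129 on its brightest probe set. Its 3 probe sets ran from -1.01 to -0.46 for BL6 minus SV129 and from -1.15 to -0.34 for FVB/N minus SV129, with none called.

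For BL6 minus SV129, 6 collagen probe sets were called lower in BL6, or 12%, where 1.16% of all were. Besides Col4a3 they were Col23a1 1429210_at (-1.43 ± 0.214, adjusted p = 0.00974) and 1440911_at (-1.35 ± 0.22, adjusted p = 0.0139), Col6a3 (-0.74 ± 0.136, adjusted p = 0.0234), Col1a2 1423110_at (-0.66 ± 0.134, adjusted p = 0.0374) and Col5a1 1434479_at (-0.83 ± 0.179, adjusted p = 0.0473). Other probe sets of these genes were not called: the brightest of Col1a2 gave -0.37 ± 0.129, adjusted p = 0.206, the brightest of Col5a1 -0.35 ± 0.161, adjusted p = 0.331, 1416741_at of the same gene -0.11 ± 0.291, adjusted p = 0.889, and Col23a1 1429209_at -0.96 ± 0.22, adjusted p = 0.0595. On the 7 arrays 3 were called lower, where 0.859% of all were: both of Col23a1 (-1.22 ± 0.197 and -1.25 ± 0.225) and Col6a3 (-0.78 ± 0.148). With 1 array left out, the count was 0 without Hypoxic BL6 array 5, 1 without Hypoxic BL6 array 2, Hypoxic SV129 array 2 or the normoxic SV129 array, and 3 without Hypoxic SV129 array 5. In these 5 fits 0.326% to 0.644% of all were called lower. Over 21 other settings, the calls of Col5a1 1434479_at and Col1a2 1423110_at were lost in 16 and 12. Those of Col6a3 and Col4a3 1438779_at were lost in 7 each, and those of Col23a1 1429210_at and 1440911_at in 1 and 5.

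For Col23a1 the brightest probe set, 1440911_at, read 9.26 and 9.40 in hypoxic and 9.60 in normoxic BL6, 10.49 and 10.07 in hypoxic and 9.70 in normoxic FVB/N, and 11.06 and 10.77 in hypoxic and 10.48 in normoxic SV129. BL6 did not overlap SV129, while FVB/N did by a narrow margin. For Col6a3, whose array values stand with the hypoxia result, the strain means were 11.89 ± 0.223 in BL6, 12.21 ± 0.365 in FVB/N and 12.63 ± 0.371 in SV129 (SD, n = 3 each).

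For FVB/N minus SV129, 7 collagen probe sets were called lower in FVB/N, or 14%, where 1.83% of all were, and 5 of them were fibrillar. They were Col1a2 on both probe sets that passed the filter (-1.17 ± 0.134, adjusted p = 0.00228, and -0.70 ± 0.129, adjusted p = 0.0225), Col1a1 (-1.30 ± 0.19, adjusted p = 0.00764), Col3a1 1427884_at (-1.46 ± 0.264, adjusted p = 0.0213), Col5a1 1416740_at (-0.86 ± 0.161, adjusted p = 0.0241), Col4a3 and Col4a5. Not called were Col1a1 1455494_at (-0.40 ± 0.239, adjusted p = 0.449), the brightest of Col3a1 (-0.57 ± 0.151, adjusted p = 0.0924) and Col5a1 1434479_at and 1416741_at (-0.79 ± 0.179, adjusted p = 0.0539, and -0.43 ± 0.291, adjusted p = 0.508). Over 21 other settings, the calls of Col1a2 1450857_a_at, Col5a1 1416740_at and Col3a1 1427884_at were lost in 10, 9 and 5. That of Col1a1 was lost in 1, and those of Col1a2 1423110_at and Col4a3 1438779_at in 0. The FVB/N arrays of Col1a2 and of Col5a1 1416740_at did not overlap the SV129 arrays. Col3a1 1427884_at read 9.55 and 10.10 in hypoxic and 9.39 in normoxic FVB/N, and 11.49 and 10.94 in hypoxic and 10.99 in normoxic SV129. On the 7 arrays 3 were called lower, where 1.23% of all were: Col1a1 (-1.32 ± 0.222), Col1a2 1423110_at (-1.08 ± 0.152) and Col4a3 1438779_at (-1.66 ± 0.21). The count of 7 was 3 without Hypoxic FVB/N array 2, Hypoxic SV129 array 2 or the normoxic SV129 array, and 4 without Hypoxic BL6 array 5 or Hypoxic FVB/N array 6, where 0.666% to 1.13% of all were called lower.

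Over arrays, 16 of the 50 collagen probe sets (32%) had all 3 SV129 arrays above all 6 others, where 4.13% of all probe sets did, and 2 (4%), both of Col4a6, had them below, where 3.3% of all did. Of these 2, 1421007_at passed the filter only through BL6 and FVB/N. The 16 belonged to Col1a2, Col3a1, Col4a3, Col4a4, Col5a1, Col5a2, Col5a3, Col6a1, Col6a2, Col8a1 and Col15a1. Col15a1 was at 8.04 or higher in SV129 and at 7.98 or lower elsewhere, and its differences of -1.21 for BL6 minus SV129 and -1.20 for FVB/N minus SV129 were not called (adjusted p = 0.125 and 0.119). Col6a1 read 12.33 and 12.32 in hypoxic and 12.36 in normoxic BL6, 12.35 and 12.29 in hypoxic and 11.73 in normoxic FVB/N, and 13.03 and 12.56 in hypoxic and 12.42 in normoxic SV129. Col6a2 read 12.13 and 12.27 in hypoxic and 12.38 in normoxic BL6, 11.98 and 12.07 in hypoxic and 11.77 in normoxic FVB/N, and 12.56 and 12.61 in hypoxic and 12.44 in normoxic SV129. Marker lists of cells that make collagen had medians below 0, with members on both sides. The 11 fibroblast markers had medians of -0.25 for BL6 and -0.35 for FVB/N minus SV129, with 4 and 1 above 0. The 8 pericyte and smooth muscle markers had -0.37 and -0.49, with 1 and 0 above 0. The 8 endothelial markers had -0.19 in both, with 3 above 0 in each. Of the fibroblast markers 1, Mfap5, was called higher in BL6 (1.39 ± 0.214), where 1.35% of all probe sets were. Another was called lower in FVB/N, where 1.83% of all were. Of the pericyte and smooth muscle markers 1 was called lower in BL6, where 1.16% of all were. Medians on the 7 arrays were -0.19 and -0.29 for fibroblasts, -0.25 and -0.28 for pericytes and smooth muscle, and -0.12 and 0.06 for endothelium. Mean levels of the fibroblast markers ran from 11.18 to 11.60 on hypoxic and 10.98 to 11.58 on normoxic arrays. What these cells contribute to the strain differences was not tested.

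Between BL6 and FVB/N limma called 0 collagen probe sets, where 1.52% of all were called higher and 0.548% lower. Of the 50, 16 (32%) had an unadjusted p below 0.05, where 11.9% of all did, and the smallest adjusted p was 0.0749, for Col4a3 1438779_at. The median was 0.06, with 26 above and 24 below 0. The sign of the median turned on the 7 arrays, at -0.01 with 23 above and 27 below 0, beside -0.02 over all probe sets. There too limma called 0 collagen probe sets, where 0.807% of all were called higher and 0.389% lower, and 10 of the 50 (20%) had an unadjusted p below 0.05, where 10.2% of all did. The fibrillar median was 0.29 on 9 arrays and 0.13 on 7. Col1a1 differed by 0.67 ± 0.19 (adjusted p = 0.141) and Col23a1 1429210_at by -0.87 ± 0.214 (adjusted p = 0.0848). Without Hypoxic SV129 array 2, 1 was called higher in BL6, where 1.45% of all were. Without the normoxic FVB/N array 1 was called lower, where 1.09% of all were.

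**Figure D4:**
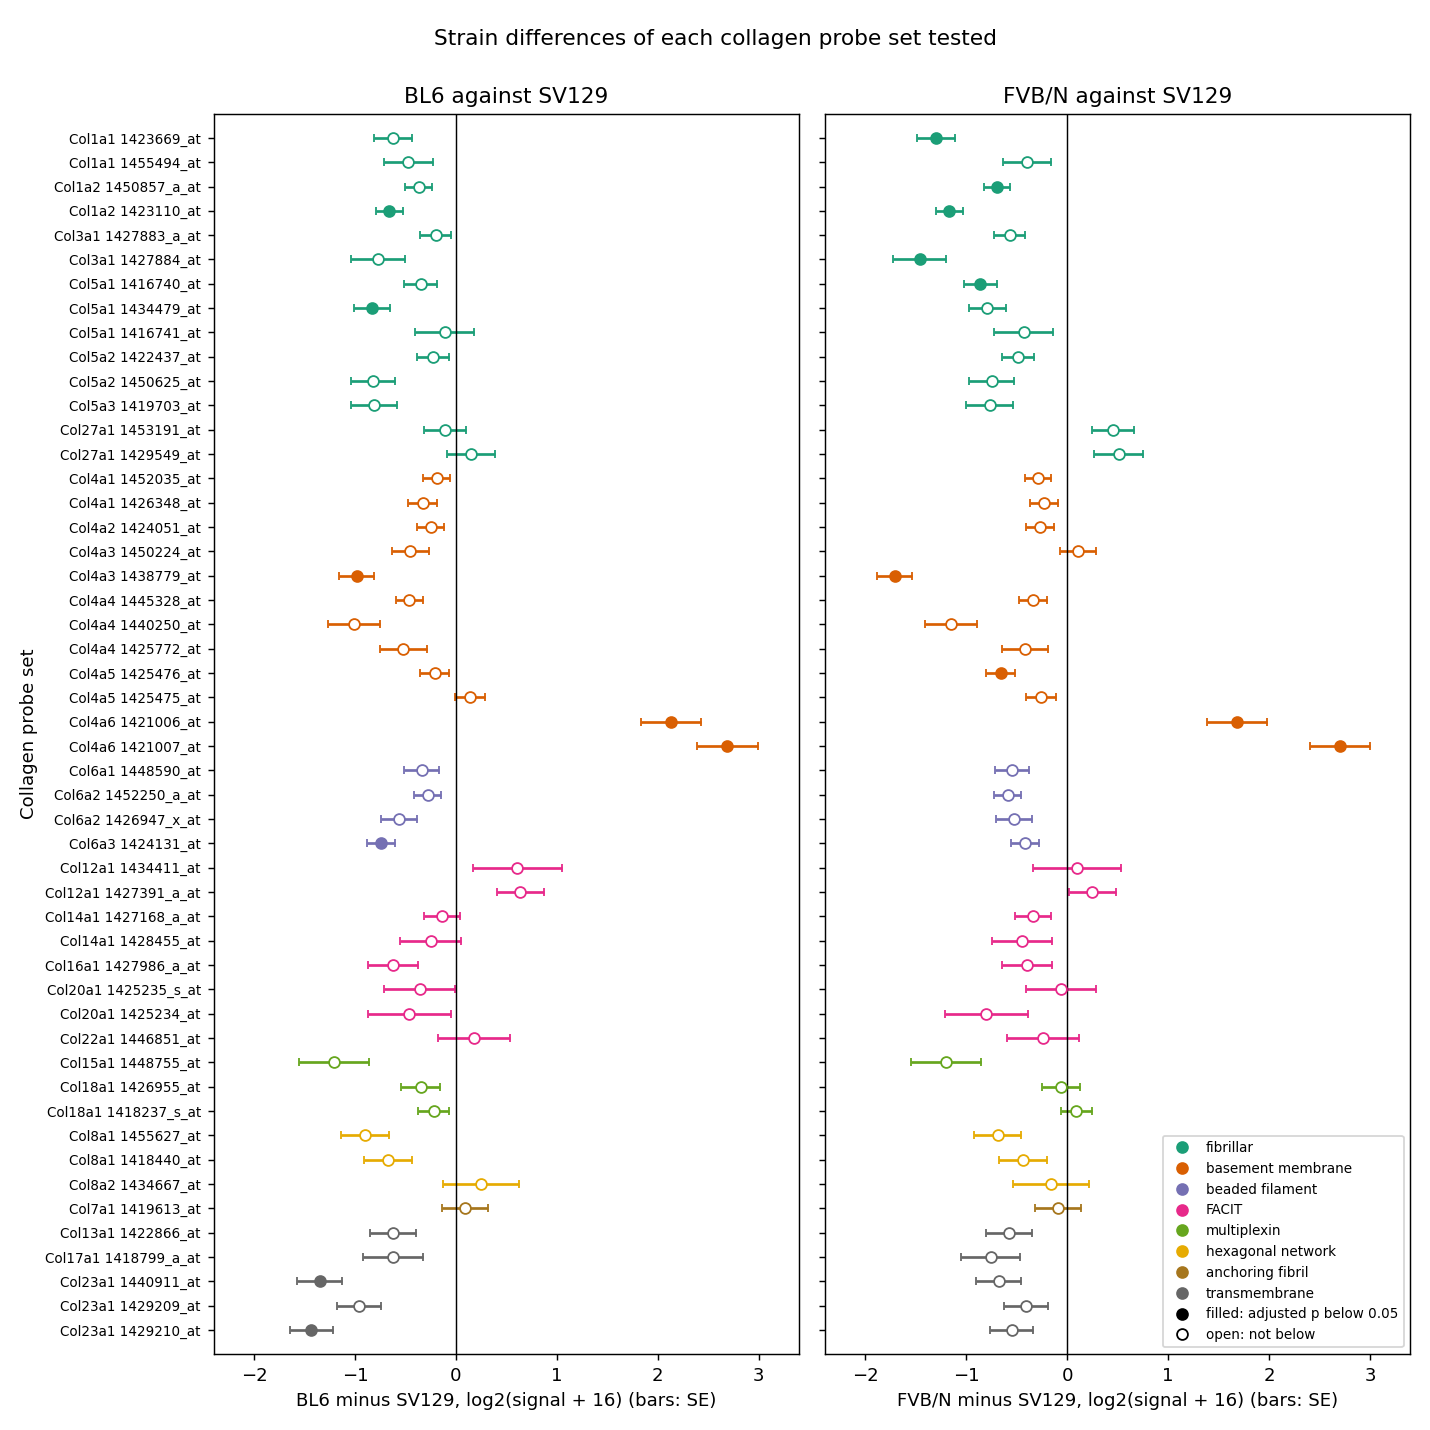
Difference of each of the 50 collagen probe sets tested for BL6 minus SV129 (left) and FVB/N minus SV129 (right), in log2 units with pressure as a term over 9 arrays, coloured by class, with bars for the SE and filled points for an adjusted p below 0.05. Most points lie left of 0, and the 2 probe sets of Col4a6 lie furthest right, between 1.68 and 2.70.

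Genes that modify, cut and cross-link collagen chains were read from a list of 28 measured genes, 25 of them tested. Each was read through its brightest probe set alone. For hypoxia 2 of the 25 were called, both higher, with a median of 0.25 and 20 of 25 above 0, where 1.94% of all probe sets were called higher. The median on the 7 arrays was 0.13. Plod2, which hydroxylates lysines at the ends of collagen chains, read 11.47 and 11.58 in hypoxic and 10.96 in normoxic BL6, 11.65 and 11.46 in hypoxic and 10.79 in normoxic FVB/N, and 11.40 and 11.69 in hypoxic and 10.91 in normoxic SV129. Its groups did not overlap, and it differed by 0.65 ± 0.122 (adjusted p = 0.0284). Loxl1, a lysyl oxidase that cross-links elastin and collagen, read 12.36 and 12.49 in hypoxic and 11.73 in normoxic BL6, 11.75 and 12.13 in hypoxic and 11.31 in normoxic FVB/N, and 12.80 and 12.64 in hypoxic and 12.05 in normoxic SV129. It differed by 0.66 ± 0.118 (adjusted p = 0.0244). With 7 arrays these gave 0.62 (adjusted p = 0.112) and 0.71 (adjusted p = 0.0774), so neither passed.

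Between strains, Plod1, which hydroxylates lysines within the helix, was the 1 gene of the list called for BL6 minus SV129. It read 9.29 and 9.37 in hypoxic and 9.09 in normoxic BL6, 9.90 and 9.96 in hypoxic and 9.13 in normoxic FVB/N, and 10.82 and 10.58 in hypoxic and 10.26 in normoxic SV129. All SV129 arrays lay above the rest. It differed by -1.31 ± 0.172 for BL6 minus SV129 (2.47-fold, adjusted p = 0.00529) and by -0.89 ± 0.172 for FVB/N minus SV129 (1.85-fold, adjusted p = 0.0282). Loxl1 was the other gene called for FVB/N minus SV129, at -0.77 ± 0.137 (adjusted p = 0.0192). The list thus gave 1 of 25 called lower in BL6, where 1.16% of all probe sets were. In FVB/N it gave 2 of 25 called lower, where 1.83% of all were. None of the list was called higher, where 1.35% and 1.06% of all were. Plod1 was called on the 7 arrays for BL6 minus SV129 (-1.27, adjusted p = 0.0115) and not for FVB/N minus SV129 (-0.74, adjusted p = 0.0944), while Loxl1 was (-0.80, adjusted p = 0.0451). There 0.859% of all probe sets were called lower for BL6 and 1.23% for FVB/N minus SV129.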

How the data were processed

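Strain, pressure and array number came from each array's labels. The deposited values are linear intensities, with 1 value for each probe set of each array, and the values themselves show that the authors had scaled every array to a mean of 500 after leaving out its top and bottom 2%. Which software made them is not given in the sources used. RNA came from frozen right lung by silica column, per the labels. Further arrays that the design text mentions were not analysed here.

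Intensities were taken as log2(signal + 16) from the deposited table and quantile normalized, so fold changes understate the change of dim probe sets. Array medians had run from 6.76 to 6.99. Of 45101 probe sets, 64 controls and then the dimmest 40% were left out, leaving 27022. The platform annotation gave 1 gene symbol to 34945 probe sets, several to 932 and none to 9160. All 82 collagen probe sets matched a RefSeq gene. Probe sets of a gene share its transcript, and those ending in _s_at or _x_at may match related ones. A gene was read through its brightest probe set. Where a call of a collagen rests on a probe set, the gene's others that passed the filter are given with it. Genes of the processing and marker lists were read through the brightest probe set alone, and their other probe sets were not examined.

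Fits used R 4.3.3 and limma 3.58.1 (lmFit, eBayes with trend). Strain and condition were additive terms over 9 arrays (5 residual degrees of freedom). A fit of 6 groups (3 residual degrees of freedom) gave each strain's hypoxia difference and the interaction, and takes a strain's lone normoxic array to vary like the hypoxic pairs. How many arrays there are limits precision.

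The members, gene lists, classes and settings were chosen with earlier results of these data known, including the kidney transcripts on 2 arrays. By the rule for named genes, values on every array are given for genes past the threshold through the brightest probe set and for chains of collagens I, III, IV, V, VI, XV and XVIII, and any other collagen may be named. The gene list counts are descriptions and were not tested. Alternatives were other scalings, pseudocounts and filters, eBayes settings, array weights, arrays left out, hypoxic arrays alone, array number as a block, and gene means. The fits were run on simulated data with independent normal errors and added effects of known size. Such data cannot speak to effects shared by an array's probe sets or to other tissue in a sample.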

Additional observations from a re-analysis of the deposited data

Results flagged for a closer look

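Each of the 29 genes was searched, through its brightest probe set, for 1 hypoxic array far from the other 5, and 2 genes had one. Col12a1 read 6.85 on Hypoxic SV129 array 5, and the nearest of the other hypoxic arrays read 8.17. Col6a1 read 13.03 on Hypoxic SV129 array 2, and the nearest read 12.56. The 6 hypoxic arrays span 3 strains.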

How the results depend on the processing

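No direction of a called result reversed under the settings run. The share of all probe sets called was not counted with array weights, other pseudocounts, filters or eBayes settings, the hypoxic arrays alone or the block. It was also not counted for the fits within a strain under any other setting. Counts there describe the collagen probe sets alone. For hypoxia, the 6 calls higher were 3 without the eBayes trend, 3 with array weights and 0 without both arrays with kidney transcripts, and 0 to 5 with 1 array left out. Calls lower were 1 with array weights and 0 to 1 with 1 array left out. The median of 0.22 was 0.32 with median centring, 0.06 with array weights, 0.11 without both kidney arrays, and 0.07 to 0.33 with 1 array left out. Median centring moved the median of all probe sets to 0.11 and gave 71.3% of all calls as higher, against 51.7%. For BL6 minus FVB/N, array weights gave 4 calls higher and 5 lower, and leaving out 1 array 0 to 1 of each.

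For BL6 minus SV129, the 2 calls higher were 1 with the dimmest 60% left out and 1 to 2 with 1 array left out. The 6 calls lower were 3 without the trend, 11 with array weights, 3 without both kidney arrays, 3 on the 6 hypoxic arrays, 1 with the array number as a replicate block, and 0 to 8 with 1 array left out. The median of -0.36 was -0.25 with no filter, -0.46 with the 60% filter, and -0.47 to -0.28 with 1 array left out. For FVB/N minus SV129, the 2 calls higher were 1 with the 60% filter, without both kidney arrays, on the hypoxic arrays or with the replicate block, and 1 to 2 with 1 array left out. The 7 calls lower were 3 without both kidney arrays, on the hypoxic arrays or with the block, and 3 to 8 with 1 array left out. The median of -0.44 was -0.27 with no filter, -0.53 with the block, and -0.57 to -0.37 with 1 array left out.

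For hypoxia in FVB/N, the 3 calls higher were 5 on the authors' scaling, 6 with the 60% filter, 0 without the trend, 8 with array weights, and 0 to 10 with 1 array left out, and calls lower were 1 with no filter. For hypoxia in BL6, calls lower were 0 to 1 with 1 array left out. With the mean of a gene's probe sets in place of its brightest, the 4 genes called for hypoxia became 0, in a fit over 12895 genes that called 0.0388% of all. Col4a2 and Col6a3, with 1 probe set each, kept 0.58 and 0.52 there (adjusted p = 0.0735 and 0.086 by limma). Col1a1 fell to 0.51 (adjusted p = 0.176) from 0.93 on its brightest probe set, and Col4a1 gave 0.72 (adjusted p = 0.0614). The fit of gene means called Col4a6, Col23a1 and Col6a3 for BL6 minus SV129, where 2.38% of all genes were called. For FVB/N minus SV129 it called Col4a6, Col1a2, Col4a3 and Col3a1, where 3.09% of all were. The cause of these moves was not tested.

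Strains share array numbers. Deviations of the hypoxic arrays numbered 2 had correlations over probe sets of -0.026, -0.0422 and -0.188 between strains. With 2 hypoxic arrays per strain, such a deviation only restates the difference within its pair. Every normoxic array is number 1 and no hypoxic array is, so number and pressure cannot be told apart there. Whether arrays of the same number share a batch was not tested. With 1 normoxic array per strain every hypoxia result leans on few arrays, and the 32 collagen probe sets below the filter were not tested.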
